A study of Mus musculus with 6 samples.

Results

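The mitochondrial ribosomal proteins are the nuclear-encoded proteins of the ribosome inside mitochondria. They were taken as the protein-coding genes of the deposited count table whose symbol starts with Mrpl or Mrps followed by a number. This gave 78 of the 29626 listed genes, 49 named for the large subunit (Mrpl) and 29 for the small subunit (Mrps). RNA was sequenced from sorted double-positive thymocytes, the CD4+CD8+ stage of T cell development in the thymus, of mice 8 weeks old. The 3 control mice were Kansl1fl/fl, with both Kansl1 alleles floxed and no Cre. The 3 KANSL1-deficient mice were Kansl1fl/fl CD4-Cre, with the same floxed alleles and Cre under Cd4 control, which acts from about the double-positive stage onward. The controls carried no Cre, so an effect of Cre and one of Kansl1 loss cannot be told apart. The labels number the mice within each group and do not say whether animals were pooled.

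The mitochondrial ribosome translates the few mRNAs encoded by mitochondrial DNA, all of them for subunits of the respiratory chain and ATP synthase. Its rRNAs are transcribed inside the organelle, whereas its proteins are made in the cytosol and imported, so assembly needs the output of both genomes. Some of its proteins descend from bacterial ribosomal proteins and others are found only in mitochondria. KANSL1 acts as a scaffold of NSL, a chromatin complex built around the acetyltransferase KAT8 and known to work at promoters of widely expressed genes.

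Libraries held 19361968 to 22459830 counts, and 15353 genes were tested. Kansl1 itself was read at 214, 189 and 230 CPM (counts scaled to library size with TMM factors) in control replicates 1 to 3 and at 146, 168 and 188 CPM in KANSL1-deficient replicates 1 to 3. All KANSL1-deficient libraries were below all controls, but the log2 fold change of -0.33 ± 0.14 (SE) missed the threshold of 0.05 (adjusted p = 0.171 from edgeR's quasi-likelihood fit, by Benjamini-Hochberg), and whole-gene counts include reads outside a deleted exon. The double-positive label was checked on 11 markers. Their summed level was 15139 to 15950 CPM in controls and 18063 to 20123 CPM in KANSL1-deficient cells, and 3 of the 11 rose. Of the markers of other cells, Zbtb7b, Foxp3, Nkg7, Gzmk, Pax5 and Foxn1 had at most 3 counts in any library. Other markers had more. Epcam, of thymic epithelium, had 165 to 204 counts in controls and 166 to 243 in KANSL1-deficient cells. The macrophage marker Cd68 had 151 to 269 and 81 to 201 counts in the same order. Lyz2, of the same list, had 0, 28 and 7 counts in controls and 43, 40 and 59 in KANSL1-deficient cells. Double-negative stage markers summed to 72.9 to 81.8 CPM in controls and 90.4 to 109 CPM in KANSL1-deficient cells. The list of CD8 single-positive markers summed to 26.1 to 28.9 CPM in controls and 15.1 to 18.1 CPM in KANSL1-deficient cells. For CD4 single-positive cells only Zbtb7b and Foxp3 are given, so these values do not show that such cells were equally rare in both groups, and the check of the label is incomplete. The part of other cell types in the results below was not tested, and fewer cells of a type cannot be told apart from less RNA per cell in sorted bulk samples.

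Of 78 members, 77 passed the filter on low counts. In KANSL1-deficient cells 8 of the 77 fell and none rose (edgeR, adjusted p under 0.05), 7 of 49 in the large subunit and 1 of 28 in the small subunit. Over all tested genes, 2.91% fell and 3.85% rose by the same rule, 6.76% in either direction. Of the genes that changed, 56.9% were higher with TMM scaling and 27.7% with library totals. Beyond the 8, estimates were mostly negative: 63 of the 77 log2 fold changes were below 0, against 51.8% of all tested genes. The median was -0.35 in the large subunit, with quartiles of -0.62 and -0.06, and -0.40 in the small subunit, with quartiles of -0.51 and -0.23. The median of all tested genes was -0.02. An unadjusted p under 0.05 was found for 28 members with a negative and 1 with a positive estimate, and for 11.0% and 11.7% of all tested genes. DESeq2 called 19 members lower and limma-voom called 9, where these tools called 7.50% and 3.26% of all their tested genes lower, and both called 0 members higher (8.60% and 4.65% of all their tested genes). The authors' deposited table lists an adjusted p under 0.05 for 12 large-subunit and 6 small-subunit members, all with a negative fold change. Of its genes with an adjusted p, 6.99% are under 0.05 in that direction. The authors' own mark of significance is set for 3 large-subunit and 0 small-subunit members.

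**Figure D1:**
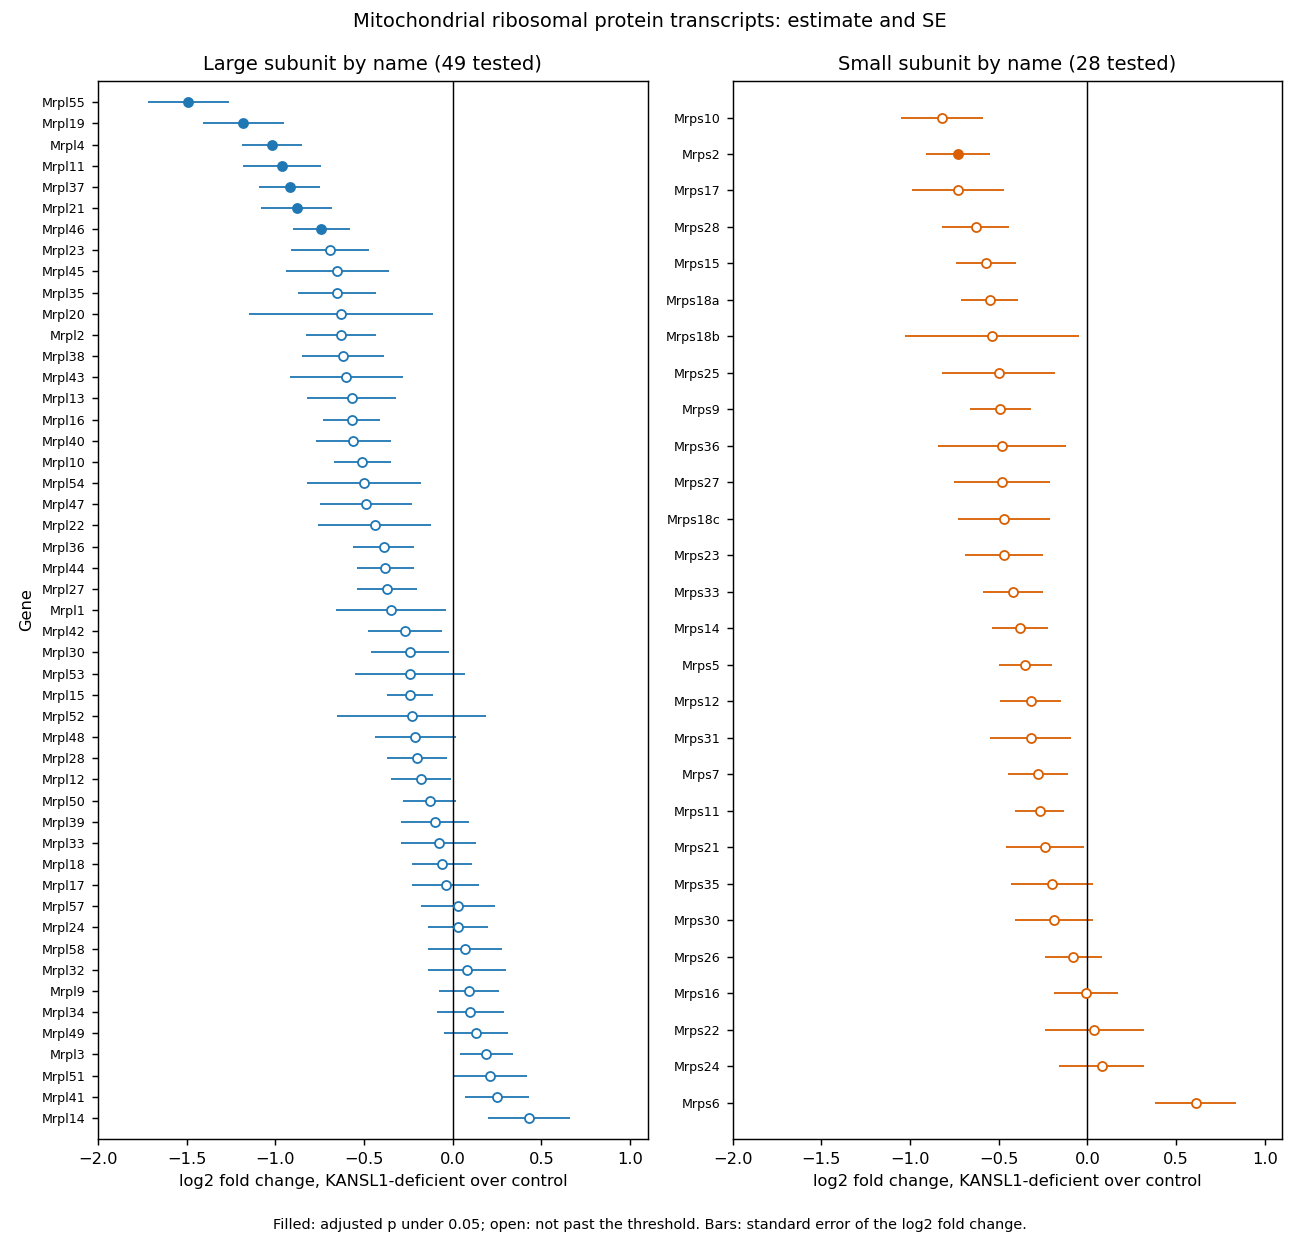
Log2 fold change of each tested member, KANSL1-deficient over control, for 49 large-subunit and 28 small-subunit genes by name; bars are standard errors and filled points passed the threshold. Estimates run from -1.49 (Mrpl55) to 0.43 (Mrpl14) in the large subunit and from -0.82 (Mrps10) to 0.61 (Mrps6) in the small subunit.

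The 8 genes that fell lost between 39.8% and 64.3% of their transcript level. Mrpl55, a large-subunit protein with a bacterial counterpart (ENSMUSG00000036860, on GRCm39 chromosome 11 from 59093312 to 59096960), had 35.2, 47.5 and 45.1 CPM in the controls and 10.8, 17.7 and 17.1 CPM in KANSL1-deficient cells. The lowest control lay well above the highest KANSL1-deficient library, and the log2 fold change was -1.49 ± 0.23 (SE; edgeR adjusted p = 0.00532). Mrpl4, which lines the tunnel through which the new peptide leaves the ribosome (chromosome 9, 20914034 to 20920135), had 53.8, 68.2 and 77.5 CPM in controls and 31.0, 35.1 and 32.0 CPM in KANSL1-deficient cells. The KANSL1-deficient libraries lay close together and below every control (log2 fold change -1.02 ± 0.17, SE; edgeR adjusted p = 0.00728). Mrpl55 and Mrpl4 passed the threshold with any 1 of the 6 libraries left out, with adjusted p of at most 0.0305 and 0.0427 over all alternatives.

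Mrpl19, an rRNA-binding protein with a bacterial counterpart (chromosome 6, 81934832 to 81942939), had 25.3, 34.5 and 36.9 CPM in controls and 11.1, 14.3 and 17.4 CPM in KANSL1-deficient cells. The groups did not overlap, and the log2 fold change was -1.18 ± 0.23 (SE; edgeR adjusted p = 0.0136). The gene overlaps Gcfc2 on the opposite strand. No source used here says if the counting kept strands apart, so reads of the overlap may belong to either gene. Mrpl37, found only in mitochondrial ribosomes (chromosome 4, 106913071 to 106924065), went from 61.9, 51.5 and 68.9 CPM to 30.5, 31.3 and 34.7 CPM. Again every control was above every KANSL1-deficient library (log2 fold change -0.92 ± 0.17, SE; edgeR adjusted p = 0.00932). Mrpl19 did not pass without control replicate 2 or without KANSL1-deficient replicate 1 or 2 (edgeR adjusted p up to 0.0664), nor did Mrpl37 without KANSL1-deficient replicate 1 or 2 (up to 0.0554).

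Mrpl11 belongs to the stalk base on which translation factors dock (chromosome 19, 5012175 to 5017027). It was read at 32.9, 49.0 and 41.1 CPM in controls and at 16.1, 22.0 and 25.3 CPM in KANSL1-deficient cells (log2 fold change -0.96 ± 0.22, SE; edgeR adjusted p = 0.0253). The other stalk proteins had smaller estimates that did not pass: -0.51 for Mrpl10, the anchor of the stalk, and -0.18 for Mrpl12, its factor-binding tip. Mrpl21, another protein of bacterial descent (chromosome 19, 3332901 to 3342837), went from 35.6, 35.7 and 34.0 CPM to 14.9, 21.9 and 20.5 CPM (log2 fold change -0.88 ± 0.20, SE; edgeR adjusted p = 0.0234). Controls lay within a narrow range, and none came near the KANSL1-deficient libraries. Mrpl21 shares part of its span with Ighmbp2 on the opposite strand. Mrpl11 lost its call without control replicate 2 or 3 or KANSL1-deficient replicate 1 or 2 (edgeR adjusted p up to 0.108), and Mrpl21 without control replicate 2 or any 1 of the KANSL1-deficient libraries (up to 0.101 over all alternatives).

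Mrpl46, in the central protuberance of the large subunit (chromosome 7, 78424984 to 78433279), had 85.4, 115 and 108 CPM in controls and 54.9, 71.1 and 58.9 CPM in KANSL1-deficient cells (log2 fold change -0.74 ± 0.16, SE; edgeR adjusted p = 0.0209). The groups did not overlap, although control replicate 1 was nearest to the KANSL1-deficient libraries. Mrps2, the small-subunit gene that fell (chromosome 2, 28358078 to 28361190), went from 58.9, 53.7 and 56.1 CPM to 31.5, 41.2 and 28.7 CPM (log2 fold change -0.73 ± 0.18, SE; edgeR adjusted p = 0.0294). Mrpl46 lost its call without control replicate 2 or 3 or KANSL1-deficient replicate 1 or 3 (edgeR adjusted p up to 0.104). Mrps2 kept it only without KANSL1-deficient replicate 2 among the 6 single omissions (edgeR adjusted p up to 0.124 over all alternatives).

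**Figure D2:**
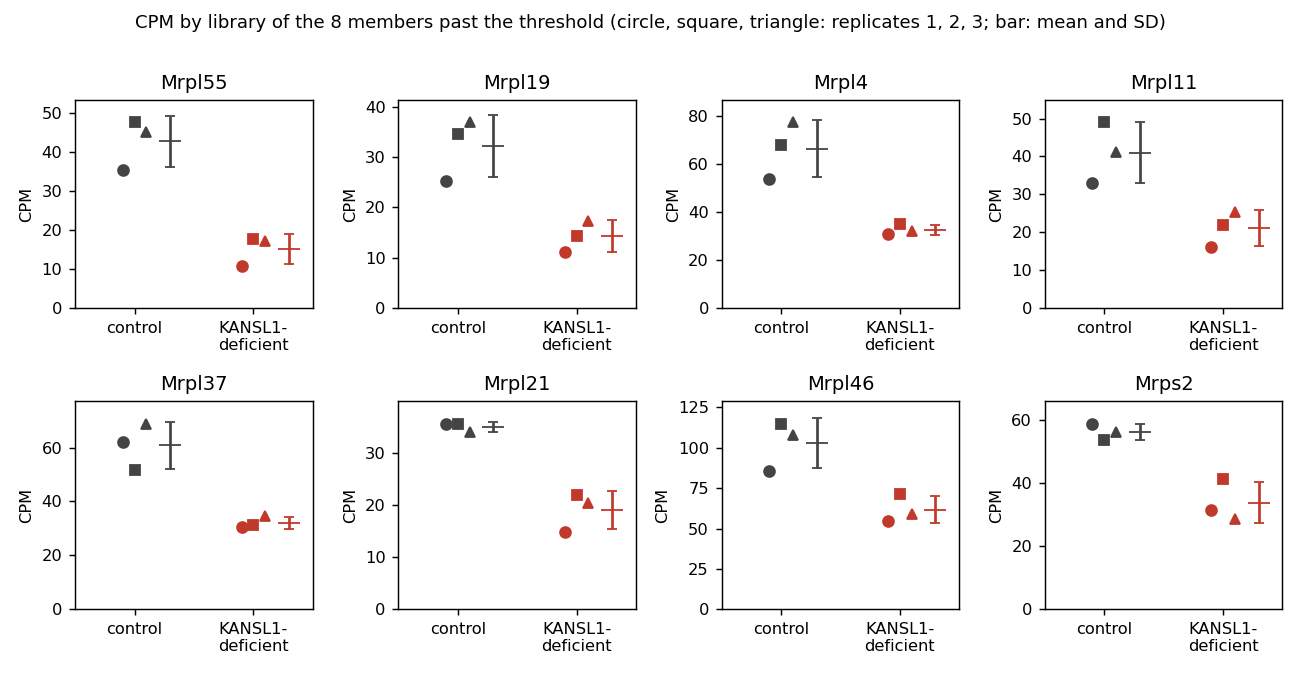
CPM of the 8 genes that fell, in each control (grey) and KANSL1-deficient (red) library; circle, square and triangle are replicates 1, 2 and 3, and the bar beside them is the mean and SD. In every panel the lowest control lies above the highest KANSL1-deficient library, with Mrpl55 going from 35.2 to 47.5 CPM down to 10.8 to 17.7 CPM.

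Sequence before the start of these genes is shown for 4 that fell and, for contrast, for the member with the largest positive estimate in each subunit, so that their base composition and motifs can be compared. The stretches are the 250 bases before the RefSeq start, in GRCm38.p6 coordinates, 5′ to 3′ in the direction of transcription. Capitals mark a GC box (GGGCGGG) or a CCAAT box (CCAAT), on either strand.
Mrpl55 (chr11:59202236-59202485, plus strand): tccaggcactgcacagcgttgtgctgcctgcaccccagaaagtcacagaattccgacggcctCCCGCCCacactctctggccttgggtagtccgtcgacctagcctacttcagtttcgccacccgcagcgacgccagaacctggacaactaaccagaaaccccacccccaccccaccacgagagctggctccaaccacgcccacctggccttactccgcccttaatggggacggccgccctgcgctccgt
Mrpl11 (chr19:4962056-4962305, plus strand): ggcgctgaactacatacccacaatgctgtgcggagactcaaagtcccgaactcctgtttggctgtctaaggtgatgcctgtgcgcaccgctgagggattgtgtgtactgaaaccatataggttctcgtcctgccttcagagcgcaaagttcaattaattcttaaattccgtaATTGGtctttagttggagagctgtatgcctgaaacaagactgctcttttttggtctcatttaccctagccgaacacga
Mrpl37 (chr4:107066867-107067116, minus strand): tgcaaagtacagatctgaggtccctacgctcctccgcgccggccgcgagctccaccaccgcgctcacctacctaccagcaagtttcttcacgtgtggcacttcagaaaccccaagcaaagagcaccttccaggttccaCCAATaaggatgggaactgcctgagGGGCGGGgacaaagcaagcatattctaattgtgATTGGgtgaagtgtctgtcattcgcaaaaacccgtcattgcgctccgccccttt
Mrps2 (chr2:28467816-28468065, plus strand): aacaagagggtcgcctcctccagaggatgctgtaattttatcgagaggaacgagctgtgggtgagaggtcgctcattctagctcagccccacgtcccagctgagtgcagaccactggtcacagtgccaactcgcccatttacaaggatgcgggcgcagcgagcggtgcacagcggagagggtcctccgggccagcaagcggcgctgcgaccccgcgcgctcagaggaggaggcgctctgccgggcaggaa
Mrps6 (chr16:92058086-92058335, plus strand): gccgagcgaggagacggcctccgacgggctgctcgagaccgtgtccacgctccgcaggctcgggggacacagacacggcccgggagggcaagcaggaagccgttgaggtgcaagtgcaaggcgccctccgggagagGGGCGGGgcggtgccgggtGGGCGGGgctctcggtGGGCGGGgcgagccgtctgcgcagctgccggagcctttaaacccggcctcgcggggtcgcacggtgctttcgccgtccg
Mrpl14 (chr17:45686099-45686348, plus strand): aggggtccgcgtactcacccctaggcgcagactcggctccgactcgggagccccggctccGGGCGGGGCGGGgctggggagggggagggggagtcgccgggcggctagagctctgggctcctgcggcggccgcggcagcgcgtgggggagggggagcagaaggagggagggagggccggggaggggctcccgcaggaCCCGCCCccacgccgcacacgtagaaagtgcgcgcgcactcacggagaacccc
Windows of 300 bases, the 250 before and 50 after the start, were found for 69 of the 78 members (75 windows), and none was found for Mrpl4 and Mrpl19. Over the 300 bases, the GC content was 73.7% in Mrps6 and 78.0% in Mrpl14, with 3 and 4 GC boxes, and 64.7% in Mrpl55, 49.3% in Mrpl11, 57.3% in Mrpl37 and 65.0% in Mrps2. Other members with positive estimates differed from these 2: Mrpl41 had no GC box at 68.0% GC, and Mrpl51 had 1 at 57.7% GC. In Mrpl11 and Mrps2 no GC box was found, and in Mrps2 no CCAAT box either. A CCGGAAG, the core of ETS factor sites, stood in 34.7% of member windows on either strand, in 18.4% of the windows of tested protein-coding genes and in 8.86% of all windows in the table. For AAGATGGC, the core of YY1 sites, these shares were 16.0%, 4.58% and 2.75%, and for GCATGCGC, part of the NRF1 site, 10.7%, 5.34% and 2.71%. For the GC box the shares were 42.7%, 46.3% and 25.6%, and for the CCAAT box 40.0%, 38.2% and 37.4%. Among the members with a window, the median log2 fold change was -0.23 for the 26 with the ETS letters and -0.38 for the 43 without, -0.30 for the 12 with the YY1 letters and -0.35 for the 57 without, and -0.09 for the 8 with the NRF1 letters and -0.35 for the 61 without. It was -0.35 for the 29 with a GC box and -0.34 for the 40 without, and -0.32 for the 27 with a CCAAT box and -0.36 for the 42 without. Letter matches describe these windows and do not show binding.

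Members of bacterial descent and those found only in mitochondria were examined separately within each subunit. In the large subunit, 5 of 30 genes with a bacterial counterpart fell (median log2 fold change -0.38), as did 2 of 19 found only in mitochondria (median -0.24). In the small subunit, 1 of 16 genes with a bacterial counterpart fell (median -0.37). Of the 9 tested small-subunit genes found only in mitochondria, 0 passed in any of edgeR, DESeq2 and limma-voom, while edgeR gave an unadjusted p under 0.05 for 1 (median -0.42). The differences between these classes were not tested. The names do not always give the place of the protein: Mrps18a and Mrps30 are small-subunit genes by name whose proteins sit in the large subunit. Mrps18a was read at 79.6, 94.0 and 113 CPM in controls and at 68.8, 66.7 and 61.0 CPM in KANSL1-deficient cells, without overlap (log2 fold change -0.55; edgeR adjusted p = 0.0562). Mrps30 had overlapping groups, 33.0 to 64.2 CPM and 41.2 to 49.4 CPM. The relatives of Mrps18a by name, Mrps18b and Mrps18c, had estimates of -0.54 ± 0.49 and -0.47 ± 0.26 (SE). Mrps36, now placed in the 2-oxoglutarate dehydrogenase complex, had -0.48 ± 0.36 (SE).

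Close below the threshold stood a further set of negative estimates, 8 members with an edgeR adjusted p between 0.05 and 0.1. In the small subunit these included Mrps10, of the subunit head, with 17.1, 26.1 and 22.7 CPM in controls and 10.6, 14.1 and 12.6 CPM in KANSL1-deficient cells (log2 fold change -0.82 ± 0.23, SE; edgeR adjusted p = 0.0545), and Mrps15 (-0.57; edgeR adjusted p = 0.0640). In the large subunit they included Mrpl16 (-0.57; edgeR adjusted p = 0.0549), Mrpl10 (-0.51; 0.0736) and Mrpl23 (-0.69; 0.0746), a protein at the tunnel exit. The other 3 were Mrps18a, Mrps28 (-0.63) and Mrpl2 (-0.63), the latter near the peptidyl transferase centre. In all 8 the groups did not overlap, but these members were picked by p on the same libraries. DESeq2 called all 8 lower, and limma-voom called Mrpl16 among them. At the tunnel exit, Mrpl45, which tethers the ribosome to the inner membrane, had an estimate of -0.65 ± 0.29, and the RNase-like Mrpl44 one of -0.38 ± 0.16.

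A smaller group of members had estimates above 0 with TMM scaling. Mrps6, a small-subunit protein that pairs with Mrps18c, was read at 9.14, 12.6 and 9.81 CPM in controls and at 16.8, 16.8 and 14.6 CPM in KANSL1-deficient cells. All 3 KANSL1-deficient libraries were above all controls, but the log2 fold change of 0.61 ± 0.23 (SE) did not pass (edgeR adjusted p = 0.143), and Slc5a3 lies within the span of Mrps6 on the same strand. Mrpl14, on the face between the subunits, had 11.8, 17.3 and 18.3 CPM in controls and 19.4, 20.3 and 24.2 CPM in KANSL1-deficient cells (0.43 ± 0.23, SE; edgeR adjusted p = 0.292). Mrpl41 and Mrpl51 followed with 0.25 ± 0.18 and 0.21 ± 0.21, and in the small subunit Mrps24 and Mrps22 with 0.08 ± 0.24 and 0.04 ± 0.28. Mrpl58, a hydrolase that frees stalled peptides, had 0.07 ± 0.21. With library totals Mrps24, Mrps22 and Mrpl58 lay below 0 (-0.06, -0.11 and -0.08), and Mrps6, Mrpl14, Mrpl41 and Mrpl51 stayed above it (0.46, 0.29, 0.11 and 0.07). Without overlap between the groups, 29 of 77 members were lower in all KANSL1-deficient libraries (37.7%), as were 14.0% of all tested genes, and 2 members were higher, as were 14.6% of all tested genes.

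Transcript levels of the members spanned a wide range. Per gene length, in FPKM, the control mean of the 49 large-subunit genes had a median of 12.3 and that of the 28 tested small-subunit genes one of 17.4. The highest control mean was that of Mrpl46, 76.3 ± 10.4 FPKM (SD, n = 3), followed by Mrpl12 with 66.1 ± 13.0, Mrpl34 with 65.3 ± 7.95 and Mrpl10 with 63.4 ± 3.97 FPKM, neighbours that lay within 1 SD of each other. In KANSL1-deficient cells the first of these was Mrpl34, at 63.2 ± 11.4 FPKM, and Mrpl46 was at 41.3 ± 5.74 FPKM. Mrpl55 went from rank 10 to rank 30 among the members, from 43.6 ± 6.08 to 14.1 ± 3.74 FPKM. In the small subunit Mrps28, Mrps12 and Mrps11 were highest, at 43.8, 40.4 and 40.2 FPKM in controls. The lowest tested members were Mrps25 (1.01 FPKM), Mrps18b (1.23) and Mrpl20 (1.44). Mrps34, the member that was not tested, had 3, 5 and 13 counts in controls and 2, 3 and 5 counts in KANSL1-deficient cells, and it overlaps Mapk8ip3 on the opposite strand. FPKM values are scaled to library totals, on which the median log2 fold change of all genes was -0.17 and not -0.02. The 8 genes that fell had mean levels of 23.3 to 82.2 CPM. The standard error of the log2 fold change was 0.26 to 0.52 for the 11 members under 10 CPM and 0.13 to 0.31 for the 56 of at least 20 CPM, so a fall of the same size was less detectable in the former.

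**Figure D3:**
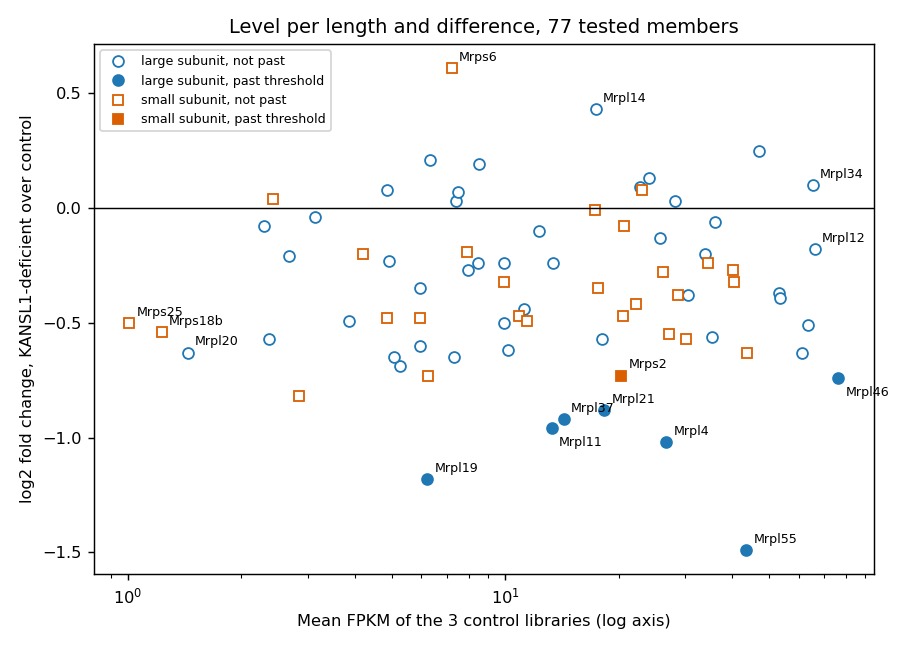
Mean FPKM of the 3 control libraries (log axis) against the log2 fold change of 77 tested members, circles for the large and squares for the small subunit; filled symbols passed the threshold. Genes that fell lie between 6.22 FPKM (Mrpl19) and 76.3 FPKM (Mrpl46) in controls, among members of like level with estimates near 0.

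The libraries were then compared by the position of all members together. Summed over the 78 members, the level was 2607, 3381 and 3211 CPM in control replicates 1 to 3 and 2319, 2539 and 2443 CPM in KANSL1-deficient replicates 1 to 3. Control replicate 1 was the lowest control for 63 of the 77 members, and it was the lowest for 36.0% of all tested genes. Its median deviation from the control mean on the log2 scale was -0.26 in the large and -0.25 in the small subunit, beside 0.13 and 0.20 in control replicate 2 and 0.08 and 0.13 in control replicate 3. KANSL1-deficient replicates 1, 2 and 3 stood at -0.40, -0.23 and -0.26 in the large subunit and at -0.45, -0.33 and -0.31 in the small subunit. Control replicate 1 was thus near KANSL1-deficient replicates 2 and 3 in the median member. For all 8 genes that fell it stayed above every KANSL1-deficient library, but those genes were chosen by the test on these same libraries. Without control replicate 1, 12 members fell, as did 2.38% of all tested genes, and the median over the 77 was -0.48. With another library left out, 2 to 5 members fell, as did 0.53% to 1.55% of all tested genes. The median over the 77 was then -0.37 to -0.28. The ratio of summed large- to small-subunit levels was 1.60 to 1.73 in controls and 1.60 to 1.70 in KANSL1-deficient cells, so the spread within each group was as wide as between them.

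**Figure D4:**
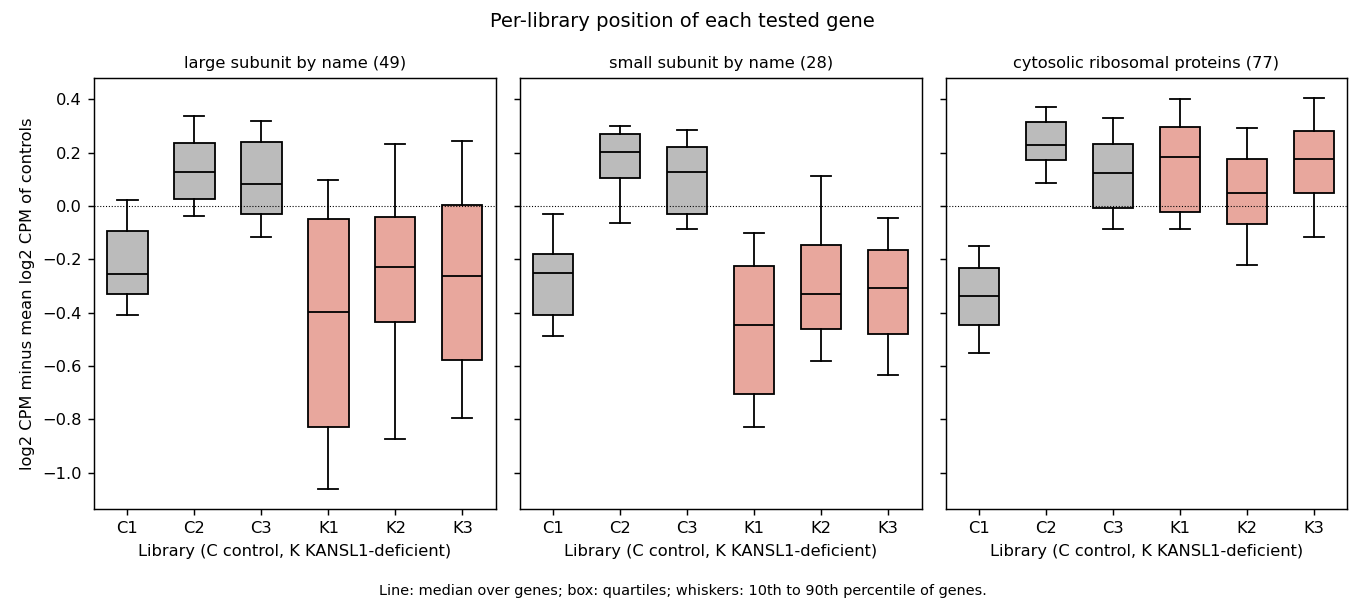
Log2 CPM of each gene minus its control mean, by library (C control, K KANSL1-deficient), for large-subunit, small-subunit and cytosolic ribosomal protein genes; lines are medians over genes, boxes quartiles and whiskers the 10th to 90th percentile. Control replicate 1 lies low in all 3 panels (medians -0.26, -0.25 and -0.34), while KANSL1-deficient libraries lie low for the mitochondrial genes and, with TMM scaling, at 0.05 to 0.18 for the cytosolic ones.

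Proteins of the cytosolic ribosome, which translates nuclear mRNAs, were taken for comparison. Of 77 cytosolic ribosomal protein genes, 0 passed with edgeR, where 4 had an unadjusted p under 0.05, all higher, and DESeq2 called 2 and limma-voom 1 higher. Their median log2 fold change was 0.11, which was -0.04 with library totals, while that of the mitochondrial members was -0.52 with library totals. Among 82 nuclear-encoded subunits of the respiratory chain and ATP synthase, 0 passed with edgeR, where an unadjusted p under 0.05 was found for 6 lower and 4 higher. DESeq2 called 1 lower and 2 higher, and limma-voom 1 higher. The median was -0.12, and with library totals it was -0.27 and 4 were lower. Over all tested genes, 11.0% were lower and 11.7% higher at an unadjusted edgeR p under 0.05, and 6.25% were called lower with library totals. DESeq2 called 7.50% of its tested genes lower and 8.60% higher, and limma-voom called 4.65% higher. These differences between lists were not tested.

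Subunits with other names, assembly factors and translation factors complete the machinery. The 5 subunits with other names, Dap3, Ptcd3, Aurkaip1, Chchd1 and Gadd45gip1, had estimates of 0.16, -0.05, -0.31, 0.05 and 0.06. The last rests on 14 to 27 counts per library with an SE of 0.68, so it says little about Gadd45gip1. Of these 5, 0 passed in any of edgeR, DESeq2 and limma-voom, and edgeR gave 0 of them an unadjusted p under 0.05. Dap3, a GTP-binding protein of the small subunit and the most abundant of them, had 152 to 186 CPM in controls and 181 to 209 CPM in KANSL1-deficient cells. Of 28 assembly factors, 3 fell and none rose (median log2 fold change -0.40), and DESeq2 called 9 lower. Of all tested genes, edgeR called 2.91% lower and 3.85% higher, and DESeq2 called 7.50% of its tested genes lower. Fastkd2, which binds the large-subunit rRNA, was read at 21.9, 31.7 and 35.5 CPM in controls and at 7.77, 9.05 and 4.15 CPM in KANSL1-deficient cells (log2 fold change -2.09 ± 0.30, SE; edgeR adjusted p = 0.00453). No KANSL1-deficient library came near a control, and the call held with each library left out. Mettl17, a factor of small-subunit assembly, went from 46.8, 62.8 and 47.5 CPM to 26.5, 34.5 and 20.4 CPM (-0.95 ± 0.22, SE; edgeR adjusted p = 0.0241). Eral1, a chaperone of the small-subunit rRNA, went from 48.3, 62.1 and 57.5 CPM to 29.1, 40.7 and 33.9 CPM (-0.69 ± 0.18, SE; edgeR adjusted p = 0.0403). Mettl17 lost its call without control replicate 2 or KANSL1-deficient replicate 1 or 3 (edgeR adjusted p up to 0.0981), and Eral1 without any 1 library except control replicate 1 (up to 0.163). Of 15 tested translation factors, 0 passed with edgeR, and 3 had an unadjusted p under 0.05, all lower (median -0.28). DESeq2 called 2 and limma-voom 1 of the 15 lower. Over all tested genes, 11.0% were lower at an unadjusted edgeR p under 0.05. DESeq2 and limma-voom called 7.50% and 3.26% of all their tested genes lower.

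The organelle itself supplies the rRNAs and the mRNAs that the ribosome translates. The small-subunit rRNA mt-Rnr1 was read at 502, 555 and 501 CPM in controls and at 588, 520 and 685 CPM in KANSL1-deficient cells (log2 fold change 0.20 ± 0.13, SE). The large-subunit rRNA mt-Rnr2 was read at 16377, 17923 and 12096 CPM and at 16299, 15636 and 19688 CPM (0.15 ± 0.15, SE). Neither passed the threshold and their groups overlapped, and libraries selected for poly(A) tails catch rRNA only in part. Among 12 tested mitochondrially encoded transcripts, 1 fell: mt-Nd1, a subunit of respiratory complex I, went from 1224, 1447 and 1237 CPM to 908, 911 and 796 CPM (-0.58 ± 0.12, SE; edgeR adjusted p = 0.0155). That call was lost without control replicate 2 or any 1 KANSL1-deficient library (edgeR adjusted p up to 0.0629). Over the 12, 9 estimates were negative, 4 had an unadjusted p under 0.05 with edgeR, all lower, and the groups did not overlap in 4, all lower. Levels of these mRNAs were very uneven, with control means of 5295 CPM for mt-Co1 but 8.62 CPM for mt-Co2 and 7.15 CPM for mt-Co3. The cause of that was not tested, and the 12 estimates are not equally well measured. The median log2 fold change was -0.15, and -0.29 with library totals. DESeq2 called 2 of the 12 lower, and 4 were lower with library totals, beside 7.50% and 6.25% of all genes tested in those settings. The difference between these transcripts and the ribosomal proteins was not tested.

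Many members start close to another gene. Of the 77 tested members, 31 (40.3%) had a protein-coding gene on the opposite strand that starts within 1000 bases, against 16.8% of 11440 tested protein-coding genes. The pairs named here were chosen after their values were seen. Mrpl37 and Cyb5rl start 120 bases apart and both fell, Cyb5rl by 1.54 on the log2 scale (edgeR adjusted p = 0.0405). Ighmbp2, 116 bases from Mrpl21, had an estimate of -0.70 (edgeR adjusted p = 0.0608). Mrpl46 and Mrps11 are both members and start 412 bases apart: Mrpl46 fell, whereas Mrps11 had 72.0, 92.6 and 84.8 CPM in controls and 70.1, 69.4 and 67.5 CPM in KANSL1-deficient cells (-0.27 ± 0.14, SE; edgeR adjusted p = 0.296). Among members with positive estimates, Mrpl51 starts 100 bases from the condensin gene Ncapd2, which rose (1.03; edgeR adjusted p = 0.00465), and Mrpl41 starts 935 bases from Pnpla7, which also rose (0.64; edgeR adjusted p = 0.0237). Of the 29 distinct pairs with both genes tested, 18 had both estimates below 0, 6 both above 0 and 5 of opposite sign. Of the 30 partners tested, 2 fell (Cyb5rl and Mrpl46) and 2 rose, beside 2.91% and 3.85% of all tested genes. The median estimate of the partners was -0.26. Among all 77 members 63 estimates were below 0, as were 51.8% over all tested genes. Whether signs within pairs agreed more often than such shares give was not tested. All pairs come from the same 6 libraries, and where gene spans overlap, as for Mrpl21 and Mrpl46, reads may be shared between the genes.

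**Figure D5:**
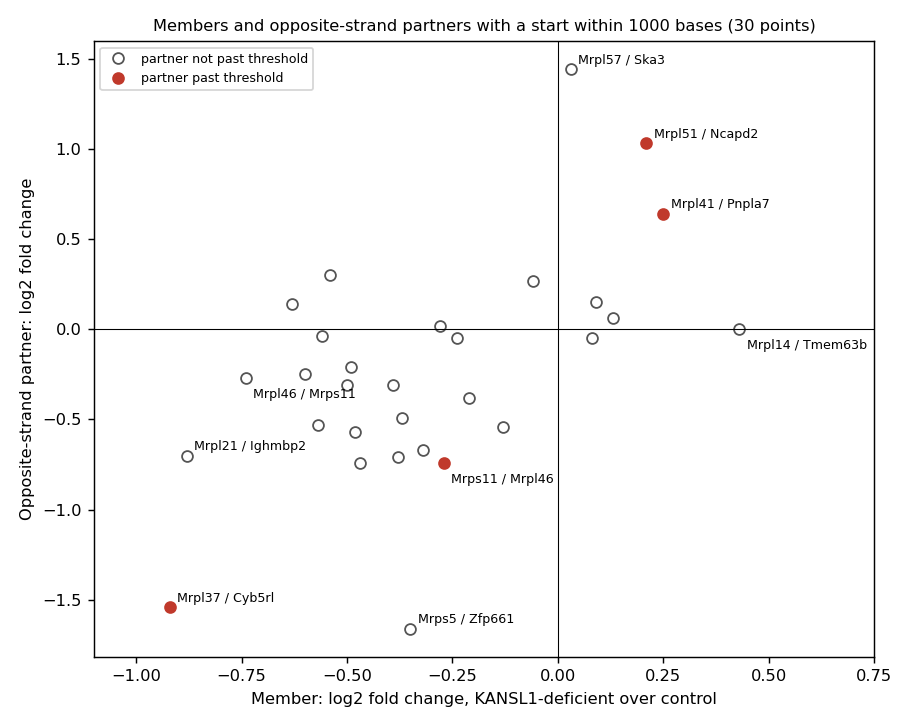
Log2 fold change of members (x axis) and of the opposite-strand protein-coding gene that starts within 1000 bases (y axis), KANSL1-deficient over control; red points are partners past the threshold, and the Mrpl46 and Mrps11 pair is drawn once from each side. Mrpl37 and Cyb5rl lie at the lower left (-0.92 and -1.54), and Mrpl51 and Ncapd2 at the upper right (0.21 and 1.03).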

How the data were processed

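The submitters' processing notes name STAR, featureCounts, DESeq2 and the GRCm39 build, without versions or a strand setting. The authors deposited whole-number counts per gene for 6 libraries and, in a separate table, FPKM values. Per the file headers, the authors' comparison also gives a mean normalized signal, the ratio of KANSL1-deficient to control, its log2, a p-value and an adjusted p-value.

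The main test was edgeR 4.0.16 (R 4.3.3), quasi-likelihood with robust shrinkage, on the deposited counts of all genes, with TMM scaling, the default filter by group (minimum count 10, minimum total 15) and Benjamini-Hochberg adjustment over all tested genes at 0.05. Standard errors are the log2 fold change divided by the square root of F. CPM use TMM factors; log2 deviations add 0.1 to CPM. The procedure was tested on simulated data. Replicate numbers are not said to mark a litter or day, so groups were unpaired. The p-values set the difference between groups against the spread between these libraries within groups. Alternatives used DESeq2 1.42.0, limma 3.58.1 (voom, and log2 of FPKM plus 1 or 0.1), other scalings and filters, lowess removal (span 0.3) of trends on abundance or gene length, a replicate block and omission of each library.

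Named genes were Kansl1, members past the threshold, the 3 smallest p, 3 largest positive, 3 highest and 2 lowest FPKM of the others per subunit, a fixed panel, and up to 4 called genes of each other list. Members, lists and alternatives were chosen with earlier results of these data known. The CD4 single-positive marker list as a whole is not reported here. Promoter windows are RefSeq, GRCm38.p6, matched by symbol; of 75 windows 72 matched GENCODE M21 transcripts in the direction of transcription and 3 were unmatched.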

Additional observations from a re-analysis of the deposited data

How the results depend on the processing

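The medians of both subunits stayed negative under all 17 alternatives, from -0.50 to -0.28 in the large and from -0.55 to -0.32 in the small subunit, and no alternative gave a member past the threshold in the higher direction. Counts moved more. Of large- and small-subunit members, 12 and 6 were lower with library totals, 11 and 5 with no filter, 11 and 5 with at least 5 CPM in 3 libraries, 12 and 7 with DESeq2, and 11 and 5 with log2(FPKM + 1). The share of all tested genes called lower was 6.25%, 2.85%, 7.45%, 7.5% and 4.25% in the same order, against 2.91% in the main test. With log2(FPKM + 0.1) 5 small-subunit members were lower and with the abundance trend removed 2, beside 3.93% and 2.35% of all tested genes. The number of changed genes over the whole table, 1038 in the main test, was 1729 with no filter and 2040 with DESeq2. With replicate number as a block, 406 genes changed, and 1.07% of all tested genes were lower. In that setting 6 members were lower, 0 of them in the small subunit, and Mrpl21 and Mrps2 were not past the threshold. Deviations of libraries with the same number correlated at -0.05, -0.02 and -0.10, and those with different numbers at -0.03 to 0.07. With 3 libraries per group these values cannot tell whether animals shared a litter or day. With 1 library left out, 283 to 811 genes changed, and 0.53% to 2.38% of all tested genes were lower. Of the members, 2 to 8 in the large and 0 to 4 in the small subunit were then lower. The cause of these shifts was not tested. Of 794 estimates for 47 named genes under these alternatives, 713 kept their side of the threshold, 38 lost a call, 43 gained one and 0 changed sign with a call. Depth limits the members under 10 CPM most, and 3 mice per group limit every call.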
